A study of Mus musculus with 4 samples.

Results

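The genes described here are 9 mouse transporter genes of the families SLC6 and SLC1, out of 49997 gene symbols in each count table. They were chosen on the difference between neurons and proliferating cells: Slc6a11, a GABA transporter, was 1 of 3 genes called in an earlier fit of these libraries, and the other 8 genes were taken as relatives of it that carry GABA, glycine, taurine, creatine, glutamate or neutral amino acids. The difference between the groups is therefore given for these genes as a description, without a test. The 4 libraries come from wild-type iMOP cells, an immortalized mouse line of multipotent otic progenitors, and from neurons made from that line, with 2 libraries labelled as biological replicates in each group. The medium of the proliferating cells held B27, carbenicillin at 25 µg/ml and basic FGF at 20 ng/ml. The neurons grew in Neurobasal medium with N21, L-glutamine at 2 mM and 1 µM of K03861, which inhibits the kinase CDK2 of the cell cycle. Medium, inhibitor and cell state differ together between the groups and cannot be told apart, and all libraries come from a single cell line.

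These proteins move small molecules across the plasma membrane by coupling them to the sodium gradient. SLC6 transporters of GABA, glycine, taurine and creatine also need chloride. They include the GABA transporters GAT2 (Slc6a13) and GAT3 (Slc6a11), the glycine transporters GlyT1 (Slc6a9) and GlyT2 (Slc6a5), the taurine transporter (Slc6a6) and the creatine transporter (Slc6a8). SLC1 transporters include the glutamate transporters GLAST (Slc1a3), GLT-1 (Slc1a2) and EAAC1 (Slc1a1), which clear glutamate from the extracellular space, and the neutral amino acid exchangers ASCT1 (Slc1a4) and ASCT2 (Slc1a5). In the nervous system GAT3, GLAST and GLT-1 are best known from astroglia, GLAST also from radial glia and from supporting cells of the inner ear, and EAAC1 from neurons.

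In RefSeq on GRCm38.p6, the assembly of the build mm10 that the submitters' processing notes name, Slc6a11 spans chr6:114131241-114249886. Slc1a3 spans chr15:8634124-8710807 on the reverse strand. The 250 bases before the RefSeq start are shown for both, because these genes of astroglia were lower in neurons in both replicate pairs. Capitals mark the GC box GGGCGG, searched on both strands.

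Slc6a11 (chr6:114130991-114131240, forward strand): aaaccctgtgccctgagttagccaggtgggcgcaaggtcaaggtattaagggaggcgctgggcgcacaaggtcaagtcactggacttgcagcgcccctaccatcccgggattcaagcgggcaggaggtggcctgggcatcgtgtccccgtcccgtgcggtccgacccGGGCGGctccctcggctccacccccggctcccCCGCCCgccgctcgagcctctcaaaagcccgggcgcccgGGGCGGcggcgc

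Slc1a3 (chr15:8710808-8711057, reverse strand): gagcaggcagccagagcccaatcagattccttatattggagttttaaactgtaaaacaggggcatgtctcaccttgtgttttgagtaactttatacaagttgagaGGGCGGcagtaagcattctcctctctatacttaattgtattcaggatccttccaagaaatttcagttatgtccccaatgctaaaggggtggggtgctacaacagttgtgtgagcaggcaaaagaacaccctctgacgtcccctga

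The windows differ in base composition. That of Slc6a11 has a GC content of 71.2% and 25 CpG dinucleotides, and that of Slc1a3 has 44.8% and 2, against medians of 52.4% and 6 over 32851 RefSeq windows of the same length. The GC box was found at 3 places before Slc6a11 and at 1 before Slc1a3, and 32.7% of all windows hold it. The letters GCGNGGGCG, a motif of EGR factors that can overlap the GC box, and TGGGAA, a motif of the Notch factor RBPJ, were in neither window, and 4.70% and 21.6% of all windows hold them. A match is a description of the letters and not of binding.

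Levels are given as deposited counts and as CPM, which are counts scaled to the library size after adjustment by TMM. Total counts were 7446361 to 14484011 per library, of which the 18S ribosomal RNA row Rn18s-rs5 took 53.3% and 59.4% in the replicate 1 libraries and 74.99% and 76.1% in the replicate 2 libraries, leaving 2595578 to 3850766 counts for all other genes. Of the 9 genes, 7 passed the filter on low counts, as did 12783 genes in all. Slc6a13 and Slc1a1 did not pass. Across all genes, edgeR's quasi-likelihood test called 0% of 12783 genes at an adjusted p-value under 0.05 (438 had an unadjusted p-value under 0.05, and DESeq2 called 54 genes), and a fit that took replicate numbers as a block called 0.0235%, which is 3 genes. Slc6a11 is among those 3, which is how it was chosen.

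The labelled identities were compared with marker lists. Of 10 neuron markers, all passed the filter, and the highest of them was Tubb3 or Map2 in each library. Their summed level was 161 and 348 CPM in proliferating replicates 1 and 2, and 202 and 364 CPM in the neuron replicates. This sum, which Tubb3 and Map2 dominate, separated the replicate numbers more than the groups. Of the 10 genes, 7 had a higher fitted value in neurons, the median log2 fold change was 0.40, and 7 went opposite ways in the pairs. Elavl4, an RNA-binding protein of neurons, and Map2 were higher in both neuron libraries without overlap, as were 12.9% of all genes. Their fitted rises were 2.83-fold and 1.41-fold, both with an edgeR adjusted p-value of 0.9998. The 3 markers with a lower fitted log2 value were Stmn2 (-1.13), Tubb3 (-0.67) and Syt1 (-0.18). Of these, Stmn2 was lower in both pairs, with log2 differences of -0.23 and -1.14. Of the otic progenitor markers, Sox2 had 362 and 355 counts in proliferating cells against 402 and 216 for neurons, and went opposite ways in the pairs. Eya1 (62 and 27 against 103 and 57 counts) was higher in neurons without overlap, as were 12.9% of all genes. Jag1 (348 and 232 against 317 and 145 counts) was lower without overlap, as were 14.5% of all genes. Both had an edgeR adjusted p-value of 0.9998. Pax2 and Pax8 were listed at 0 in all 4 libraries. Of the 7 genes of the spiral ganglion list, 4 passed the filter. Prox1 had 184 and 90 counts in proliferating cells against 247 and 318 for neurons and was higher without overlap (log2 fold change 0.96, SE 0.48, edgeR adjusted p-value 0.9998). Pou4f1 had 62 to 86 counts and Ntrk3 22 to 87, each with overlapping groups, while Isl1 was listed at 0 in all 4 libraries and Gata3 had 0 to 2 counts. Of 10 astroglia markers, 6 passed the filter, and Gja1 and Gjb6 were listed at 0 in all 4 libraries. The summed level of that list was 172 and 231 CPM in the proliferating libraries, against 67.7 and 23.3 CPM for neurons. In bulk RNA, fewer cells of a type and less RNA per cell cannot be told apart.

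**Figure D1:**
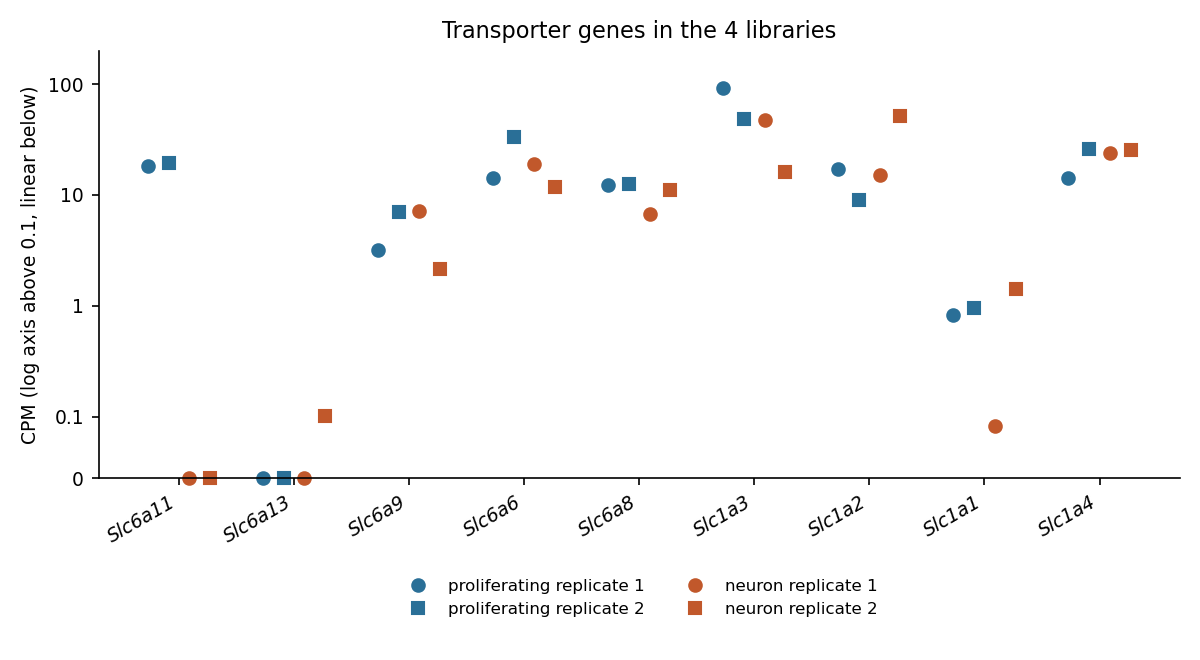
Level of each of the 9 transporter genes in CPM in each of the 4 libraries. Circles are replicate 1, squares replicate 2, blue proliferating cells and orange neurons. The axis is logarithmic above 0.1 CPM and linear below it. Slc6a11 lies at 18.1 and 19.3 CPM in proliferating cells and at 0 in both neuron libraries, while most other genes overlap between the groups.

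Among the GABA transporters, Slc6a11 was read in proliferating cells and not in neurons. It had 221 counts (18.1 CPM) in proliferating replicate 1, 143 (19.3 CPM) in proliferating replicate 2 and 0 in each neuron replicate. The proliferating replicates were close to each other in CPM, at 18.7 ± 0.845 CPM (SD, n = 2), and the groups did not overlap. That closeness depends on the scaling. The TMM factors were 1.64 and 0.714 for proliferating replicates 1 and 2, and the deposited RPKM of Slc6a11 was 7.30 and 3.39 in them. A count of 0 allows up to 3 counts, which is 0.252 CPM in neuron replicate 1 and 0.305 CPM in neuron replicate 2. Against that limit in each library, Slc6a11 was at least 67.2-fold lower in neurons, at least 71.96-fold in the replicate 1 pair and at least 63.3-fold in the replicate 2 pair. With library size alone as the scaling the bound was 83.0-fold. The bounds take the proliferating level as measured. Limits and intervals given here cover counting error only and not the spread between cultures. Reads without molecular identifiers are not independent molecules, so that even the counting error may be understated.

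Slc6a13, the other GABA transporter gene of the 9, was near the limit of detection. It had 0 counts in 3 libraries and 1 count in neuron replicate 2, so no fold is given. Slc6a12, the betaine and GABA transporter beside Slc6a13, was listed at 0 in all 4 libraries. The nearest annotated genes on either side of Slc6a11, the noncoding RNA genes Gm36023 and Gm46972, were listed at 0 in all 4 libraries as well.

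A single other gene in the tables had at least 50 counts in each proliferating library and at most 3 in each neuron library, the pattern of Slc6a11. It was Gfap, the intermediate filament gene of astrocytes, with 181 counts (14.8 CPM) and 89 counts (12.01 CPM) in proliferating replicates 1 and 2, against 1 count (0.0839 CPM) and 2 counts (0.203 CPM) for neurons.

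The glycine transporter gene Slc6a9 had no common direction. It had 39 counts (3.19 CPM) and 52 counts (7.02 CPM) in proliferating replicates 1 and 2, and 85 (7.13 CPM) and 21 (2.13 CPM) in the neuron replicates. Neurons were higher in the replicate 1 pair, by 1.11 on the log2 scale, and lower in the replicate 2 pair, with a difference of -1.63. The fitted log2 fold change was -0.12 (SE 0.71), and leaving out 1 library gave -1.29 (neuron replicate 1) to 0.54 (proliferating replicate 2). Slc6a9 overlaps Ccdc24 at its end, which had 3 to 16 counts per library. Slc6a5, the glycine transporter of glycinergic neurons, was listed at 0 in all 4 libraries.

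The taurine transporter gene Slc6a6 also went opposite ways. Its levels were 14.1 and 33.2 CPM in proliferating replicates 1 and 2 and 19.04 and 11.8 CPM in the neuron replicates, from 116 to 246 counts. Within the replicate 1 pair the log2 difference was 0.43, and within the other pair -1.48. The fitted log2 fold change of -0.61 (SE 0.57) turned to 0.13 without proliferating replicate 2, the library with the highest level.

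The creatine transporter gene Slc6a8 was lower in both neuron libraries, by little in one of them. It had 149 counts (12.2 CPM) and 93 counts (12.6 CPM) in proliferating replicates 1 and 2, and 80 (6.71 CPM) and 110 (11.2 CPM) in the neuron replicates. The groups did not overlap, but the gap between the lowest proliferating and the highest neuron library was small. The fitted log2 fold change was -0.47 (SE 0.50). The replicate 1 pair differed by -0.85 and the replicate 2 pair by -0.16. When neuron replicate 1 was left out the fitted value was -0.19.

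Of the glutamate transporters, Slc1a3 was lower in neurons in both pairs, and Slc1a2 was higher in 1 neuron library. Slc1a3, the gene of GLAST, had 1124 counts (92.1 CPM) and 357 counts (48.2 CPM) in proliferating replicates 1 and 2, and 563 (47.2 CPM) and 158 (16.1 CPM) in the neuron replicates. The highest neuron library was just under the lowest proliferating one, and with library size alone or with the 18S row left out the groups overlapped. Within the replicate 1 pair the log2 difference was -0.96 and within the other pair -1.57. The fitted log2 fold change was -1.15 (SE 0.64). Leaving out a library gave values from -2.16 (neuron replicate 1 left out) to -0.57 (neuron replicate 2 left out), and -0.62 for proliferating replicate 1.

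Slc1a2, the gene of GLT-1, stood at 16.96 and 9.04 CPM in proliferating replicates 1 and 2 (207 and 67 counts), and at 15.1 and 51.5 CPM in the neuron replicates (180 and 507 counts). Neuron replicate 2 alone was high, and neuron replicate 1 lay between the proliferating libraries. The fitted log2 fold change of 1.35 (SE 0.68) was 0.21 without neuron replicate 2. It was 0.66 with library size alone, a scaling that shifted the median of all genes from 0.02 to -0.27. The noncoding gene LOC115489466, which lies within Slc1a2, had 53 and 12 counts in proliferating cells and 113 and 93 in neurons. How the counting used strand is not given in the sources used here, so reads of these genes may have been assigned to each other.

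Slc1a1, the gene of EAAC1, had 10 and 7 counts in proliferating cells and 1 and 14 in neurons. The neuron libraries lay on either side of the proliferating ones, and at this depth no difference was detectable.

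The balance between Slc1a3 and Slc1a2 does not depend on the scaling of the libraries. This share was chosen after its values were seen. Slc1a3 made up 84.4% of the counts of both genes in proliferating replicate 1 (95% exact Clopper-Pearson interval 82.4% to 86.4%, 1331 counts) and 84.2% in proliferating replicate 2 (80.4% to 87.5%, 424 counts). The proliferating replicates thus lay within each other's intervals, although the level of each gene differed between them by over 1.5 times. The share was 75.8% in neuron replicate 1 (72.5% to 78.8%, 743 counts) and 23.8% in neuron replicate 2 (20.6% to 27.2%, 665 counts). Both neuron libraries were below both proliferating ones. The neuron replicates differed from each other by more than neuron replicate 1 did from the proliferating libraries. Per kilobase of merged exons the shares were 89.3% and 89.1% in proliferating cells and 82.8% and 32.4% in neurons.

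**Figure D2:**
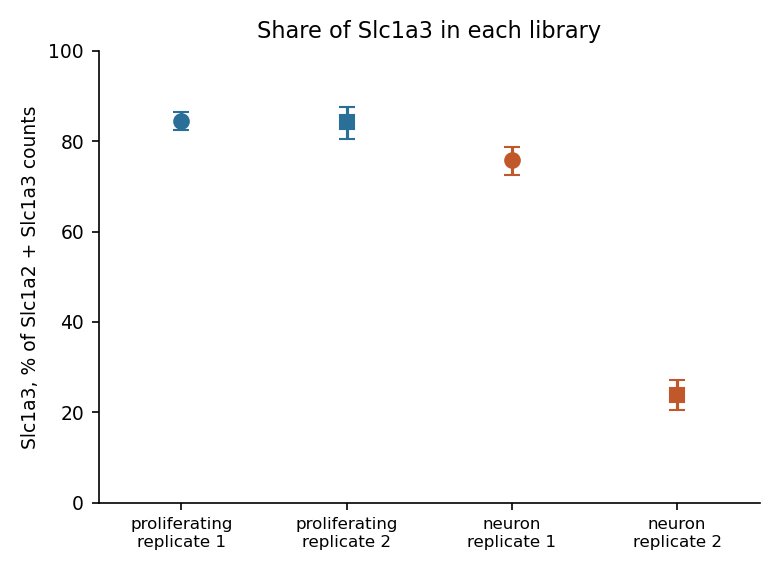
Share of Slc1a3 in the summed counts of Slc1a2 and Slc1a3, in percent, in each library. Bars are 95% exact binomial intervals, which cover counting error only. The proliferating replicates lie at 84.4% and 84.2%, neuron replicate 1 at 75.8% and neuron replicate 2 at 23.8%.

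Slc1a4, the neutral amino acid exchanger ASCT1, was the steadiest of the group in neurons. Its levels were 14.3 and 26.1 CPM in proliferating replicates 1 and 2, and 23.7 and 25.4 CPM in the neuron replicates, from 175 to 282 counts. Both neuron values lay between the proliferating ones. The fitted log2 fold change was 0.28 (SE 0.49), and it was -0.11 without proliferating replicate 1.

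The direction of Slc6a11 was seen in both pairs for 2 of the other genes. Over the 7 genes that passed the filter, 3 were lower in the neuron library of both replicate pairs (Slc6a11, Slc6a8 and Slc1a3), 0 were higher in both and 4 went opposite ways. Of all 12783 genes, 25.5% were lower in both pairs and 45.7% went opposite ways. The same 3 genes had both neuron libraries below both proliferating libraries, as did 14.5% of all genes, and 0 had them above, as did 12.9% of all genes. Because the members were chosen with this comparison known, nothing is read from these shares. The median log2 fold change of the 6 genes other than Slc6a11 was -0.30, and that of all genes was 0.02. With library size alone both medians were -0.27. The median of the 6 genes turned to 0.34 without proliferating replicate 2, and it lay between -0.62 (neuron replicate 1 left out) and -0.05 (neuron replicate 2 left out) in the other leave-one-out fits, so that its direction depended on the libraries kept. In size, fitted log2 fold changes of -0.47 for Slc6a8 and -1.15 for Slc1a3 stand beside a log2 difference of -6.07 or lower for Slc6a11, set by the limit that a count of 0 allows.

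**Figure D3:**
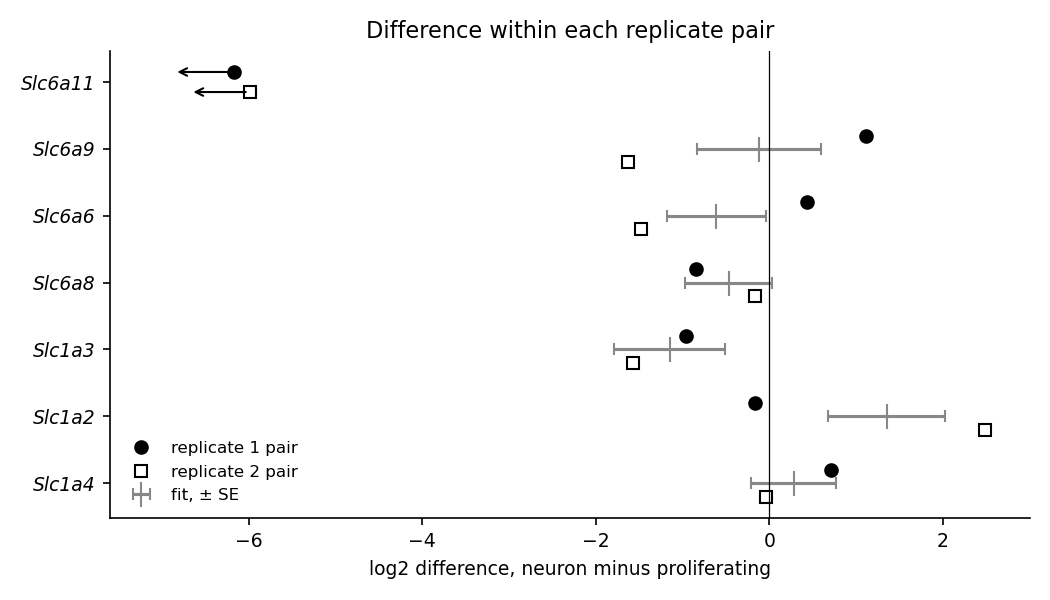
Log2 difference between the neuron and the proliferating library of each replicate pair (filled circles replicate 1, open squares replicate 2), with the fitted log2 fold change ± SE in grey, for the 7 genes that passed the filter. Arrows for Slc6a11 start at the limit that a count of 0 allows. Slc6a8 and Slc1a3 lie left of 0 in both pairs, and Slc6a9, Slc6a6, Slc1a2 and Slc1a4 have pairs on either side of 0.

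Per kilobase of merged exons, the order of the levels differed between the groups. In proliferating cells Slc1a3 had the highest mean, 8.22 ± 3.64 CPM per kilobase (SD, n = 2), followed by Slc1a4 with 5.14 ± 2.11 and Slc6a11 with 3.70 ± 0.167. Then came Slc6a6 with 2.80 ± 1.598 and Slc6a8 with 2.38 ± 0.0469. Slc6a9 with 0.993 ± 0.526 and Slc1a2 with 0.99 ± 0.426 were nearly equal, and Slc1a1 had 0.107 ± 0.0108. In neurons Slc1a4 was highest at 6.25 ± 0.317 CPM per kilobase, above Slc1a3 at 3.71 ± 2.58 and Slc1a2 at 2.54 ± 1.96. Slc6a6 followed with 1.82 ± 0.606 and Slc6a8 with 1.72 ± 0.607, and Slc6a9 had 0.901 ± 0.687. In proliferating cells, neighbours in this order differed by more than the larger of their SDs for Slc6a8 above Slc6a9, Slc1a2 above Slc1a1 and Slc1a1 above Slc6a13, which is listed at 0 there. In neurons this held for Slc6a8 above Slc6a9 and Slc6a9 above Slc1a1. All other neighbours differed by less. The order also depends on the length used for each gene. By the deposited RPKM, which divides by other lengths, Slc1a2 in neurons (0.295 and 0.543) lay below Slc6a8 (0.709 and 0.638). Slc6a6 in proliferating cells (0.475 and 0.487) also lay below Slc6a8 (1.68 and 0.753). On that scale Slc1a3 was above Slc1a4 in neuron replicate 1 (14.1 against 7.58) but not in neuron replicate 2.

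The wider transport and metabolism of these amino acids was followed in 7 further lists with 59 genes, of which 34 passed the filter. In the edgeR test 0 of the 34 were called in either direction, with 1 at an unadjusted p-value under 0.05 (438 of all 12783 genes), and 0 were called with DESeq2 or with the replicate block. Their median log2 fold change was -0.24. Both neuron libraries were below both proliferating libraries for 9 of them (14.5% of all genes) and above for 1, Slc36a4 (12.9% of all genes).

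The gene with the unadjusted p-value under 0.05 was Glul, glutamine synthetase, which makes glutamine from glutamate and is abundant in astroglia. It had 284 and 325 counts in proliferating replicates 1 and 2, against 115 and 128 for neurons, that is 33.6 ± 14.6 CPM against 11.3 ± 2.38 CPM (SD, n = 2 each). The groups did not overlap. The log2 fold change was -1.57 (SE 0.52), with an unadjusted p-value of 0.0185 and an adjusted p-value of 0.9998 in edgeR, and 0.41 with the replicate block. Glutamine was added to the medium of the neurons and is not named for that of the proliferating cells, and its part in the difference was not tested.

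The metabolism of GABA, glutamate and glycine had 14 tested genes of 15, with a median of -0.18. Lower without overlap were 4 of them (14.5% of all genes), namely Glul, Glud1, the glutaminase gene Gls2 and Amt of the glycine cleavage system. Glud1, glutamate dehydrogenase, was at 37.3 ± 6.63 CPM in the proliferating state against 17.1 ± 5.76 CPM (SD, n = 2 each) in the neuronal one, with an edgeR adjusted p-value of 0.9998. Gad1, which makes GABA, had 64 counts in proliferating replicate 1 but 5 in proliferating replicate 2, against 7 and 21 for neurons, so that its replicates differed more than its groups, and Gad2 had at most 1 count in any library. The vesicular transporters of GABA and glycine (Slc32a1) and of glutamate (Slc17a6, Slc17a7, Slc17a8) had 0 to 2 counts in every library.

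Of the remaining SLC1 genes, Slc1a5 was tested. ASCT2, its product, takes up glutamine. Slc1a5 stood at 14.7 and 22.0 CPM in proliferating cells, against 8.89 and 11.4 CPM in neurons, without overlap (log2 fold change -0.86, SE 0.49, edgeR adjusted p-value 0.9998). Of 15 further SLC6 genes, 7 were listed at 0 in all 4 libraries and 2 passed the filter. They were Slc6a17, a vesicular amino acid transporter of neurons (log2 fold change -0.55, SE 0.62), and Slc6a15, a transporter of branched-chain amino acids (0.55, SE 0.67), both with an edgeR adjusted p-value of 0.9998. A list of carriers of systems A, N and L also held amino acid carriers of other systems, among them Slc7a1, Slc7a11 and Slc36a4. It had a median of -0.14 over 8 tested genes of 10. Of these, 3 were lower without overlap (14.5% of all genes) and 1, Slc36a4, higher (12.9%).

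The sodium pump, which maintains the gradient these transporters use, had 6 tested genes of 6 and a median of -0.51. Of these genes, 4 went opposite ways in the pairs, 1 was lower in both and 1 higher in both. Their median log2 difference was -2.04 for pair 1, against 0.02 for pair 2. Lower without overlap was 1 of the 6 (14.5% of all genes), the glial beta subunit gene Atp1b2. Atp1b2 was at 32.1 and 15.8 CPM in proliferating cells, against 3.02 and 12.2 CPM in neurons (log2 fold change -1.66, SE 0.74, edgeR adjusted p-value 0.9998). For creatine and taurine supply, 3 of 6 genes were tested, with a median of -0.94 and 0 without overlap. Among them Ckb, the brain creatine kinase, was at 37.4 and 119 CPM in proliferating cells, against 23.0 and 40.2 CPM in neurons.

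**Figure D4:**
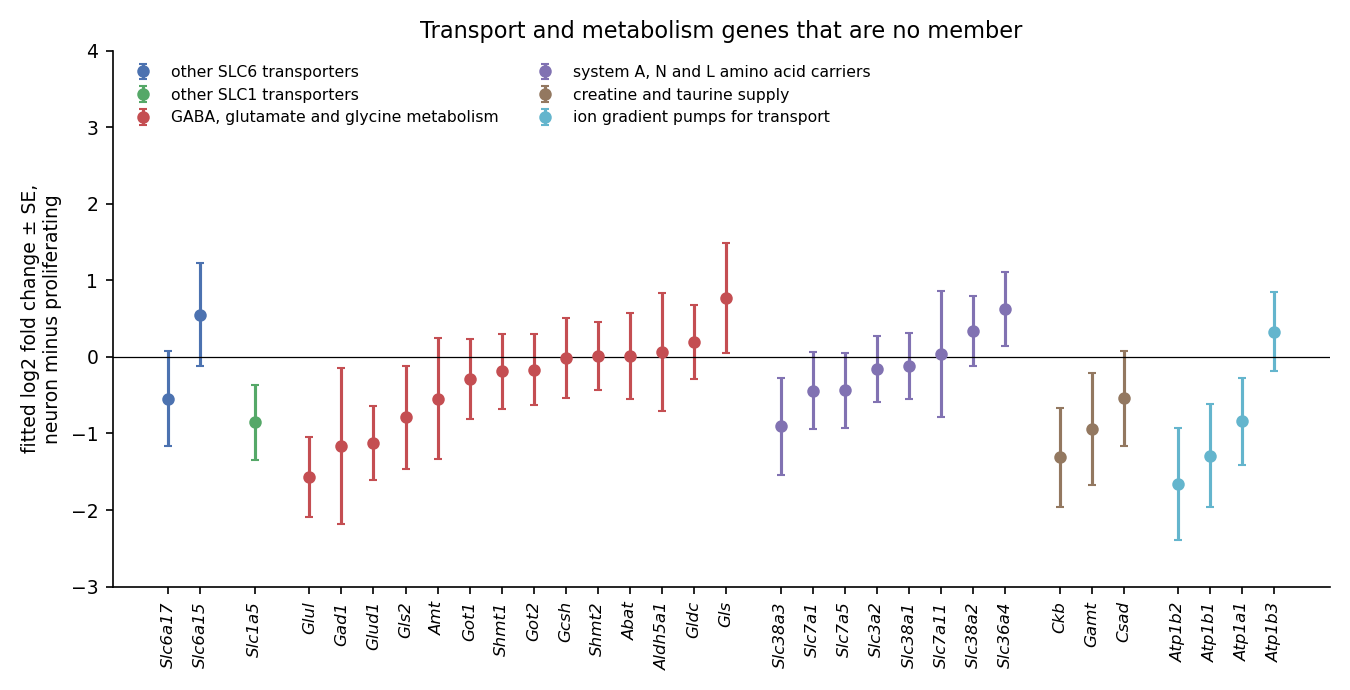
Fitted log2 fold change ± SE, neurons minus proliferating cells, of 32 of the 34 tested genes of transport and metabolism outside the 9 transporters, grouped by list. Among the genes plotted, Glul is the lowest of the metabolism genes at -1.57 and Atp1b2 the lowest of the pump genes at -1.66. The list named for systems A, N and L also holds amino acid carriers of other systems.

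The astroglia markers were compared beside Slc6a11, Slc1a3 and Glul. All 6 tested markers (Gfap, Aqp4, Fabp7, Aldoc, Sparcl1 and Sox9) had a negative fitted value, with a median of -2.35. In the edgeR test 0 of the 6 were called, 2 had an unadjusted p-value under 0.05, and with the replicate block Gfap was called. Gfap is 1 of the 3 genes called by that block fit, as is Slc6a11, and it passed the filter through its proliferating libraries. The list was chosen with earlier results of these data known, so nothing is read from its counts of genes called or without overlap. Lower without overlap were 4 of the 6 tested markers (14.5% of all genes). Their log2 differences in pairs 1 and 2 were -5.76 and -4.94 for Gfap and -4.57 and -1.65 for Sparcl1. For Fabp7 they were -0.33 and -5.47 and for Sox9 -0.59 and -3.74, so most of the fall of Fabp7 and Sox9 lay in pair 2. The other 2 tested markers went opposite ways in the pairs, Aqp4 by -3.39 and 0.60 and Aldoc by 0.14 and -3.32 on the log2 scale. Aqp4 had 356 counts in proliferating replicate 1 and 2 in proliferating replicate 2, so its value rests on 1 library. Slc1a2, also a gene of astroglia, was not lower. In neuron replicate 2, where the summed marker level was lowest at 23.3 CPM, Slc1a2 was highest at 51.5 CPM. The markers Aldh1l1, with 0 to 13 counts per library, and S100b, with 0 to 7, did not pass the filter. Whether the cultures held astroglia-like cells, and what part such cells had in the transporter values, was not tested.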

How the data were processed

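Stranded RNA-seq libraries of total RNA, depleted of ribosomal RNA, were analysed from 4 cultures. Raw counts per gene and RPKM values were deposited by the authors for each library. The submitters' processing notes name HISAT2, SAMtools, featureCounts, DESeq2, deepTools 3.4.3 and the build mm10, without their roles. The annotation, the strand setting and the treatment of reads with several matches are not given in the sources used here. The deposited RPKM of a gene divides its count by 1 length per gene that was far from the merged exons for some genes (64436 against 13133 bases for Slc1a2), so levels per length use merged exons of GENCODE M21, matched by symbol.

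Groups and replicate numbers come from the titles. Counts were fitted with edgeR 4.0.16 (R 4.3.3) as the main test, on the counts of all 4 libraries, with TMM, filterByExpr (minimum count 10, minimum total 15), glmQLFit and glmQLFTest, and the group as the single term. A call needs an adjusted p-value (Benjamini-Hochberg, over 12783 genes) under 0.05. SE is the fitted log2 fold change divided by the root of the F statistic. Differences within a pair were taken on log2 CPM (prior count 2), without a test. With 2 libraries a group, p-values measure the spread between these cultures only. Both replicate 2 titles name a set 2, so equal numbers were taken to share a set, whose nature is not stated. The deviations of same-numbered libraries correlated across genes at r = 0.33.

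Members and gene lists were chosen with earlier results of these data known. Named genes are the 9 members, genes of the lists, genes with at least 50 counts in each proliferating and at most 3 in each neuron library, the neighbours of Slc6a11 and Slc6a13, and the row with the most counts. Genes that overlap a member, and the share of Slc1a3, were chosen after the data were seen. Of the 9 members, 9 have RefSeq coordinates and 7 have an entry in the table of promoter windows. Alternatives were RLE factors, library size alone, DESeq2 1.42.0, other gene filters, the replicate block, the 18S row left out, each library left out, and limma 3.58.1 on log2 RPKM values with a pseudocount of 1 or 0.1. Values of some genes of the lists are not reported here. The fit was tested on simulated counts first. Tables and figures used Python 3.11.15, pandas 2.3.3, scipy 1.17.1 and matplotlib 3.10.9.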

Additional observations from a re-analysis of the deposited data

How the results depend on the processing

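The number of called genes depended on the setting. It was 0 in the main test, with RLE factors, with the CPM filter (which kept the same number of genes) and with the 18S row left out. It was 2 with library size alone, 1 with log2(RPKM + 1), 2 with log2(RPKM + 0.1), 3 with the replicate block, 54 with DESeq2 (11917 adjusted p-values not given) and 163 without a gene filter. Leaving out 1 library gave 13 (without neuron replicate 2) to 127 (without proliferating replicate 1) called genes, with the lone library assumed to vary like the other group. The cause was not tested. The count of pathway genes called was 0 in each of these settings, and the replicate block changed no call among them.

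Of the transporters, 3 were lower in both replicate pairs in each scaling, filter and RPKM scale run. The count without overlap between the groups was 3. It became 2, without Slc1a3, under library size alone, no gene filter, the 18S row left out and both RPKM scales. With 1 library left out any gene overlaps less readily, so that count is not given for those fits. Slc6a9 turned sign with library size alone (0.02), without proliferating replicate 2 (0.54) and without neuron replicate 2 (0.49). Slc6a6 turned sign without proliferating replicate 2, and Slc1a4 without proliferating replicate 1. The genes of low counts, Slc6a13 and Slc1a1, are limited by depth.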

Other observations

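The noradrenaline transporter gene Slc6a2 had 0 counts in both proliferating libraries and 5 and 10 counts in neuron replicates 1 and 2. It did not pass the filter on low counts and was singled out after its values were seen. The dopamine transporter gene Slc6a3 was listed at 0 in all 4 libraries, and the serotonin transporter gene Slc6a4 had at most 1 count.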
